A study of Ciona robusta with 6 samples.

Results

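The Hox genes hox1, hox3, hox4 and hox5 and the ParaHox gene ipf1 were followed through 3 dissected regions of the heart in a tunicate, Ciona robusta. They were taken by their symbols, and all 5 were found among the 793 genes of the deposited table. Bulk RNA-seq libraries had been made from the pharyngeal blood sinus (PS), the stomach blood sinus (SS) and the central cardiac tube (C), with 2 libraries for each part and 6 in all. All animals were adult and wild caught, and no treatment or genetic change was given to any group. Pieces from several hearts were pooled for each library. Pericardium was not part of them, and the sinus libraries are not free of muscle, since a margin of the tube was dissected along with either sinus. The labels do not say whether the replicates came from separate animals, so the p-values measure only the spread between these libraries.

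Hox genes encode homeodomain transcription factors that give cells their position along the body axis of most animals. Genes with low numbers act toward the head and genes with higher numbers toward the tail. In vertebrates, anterior Hox genes are switched on by retinoic acid and are active in progenitors that add to the heart tube. ParaHox genes are a sister group. Ipf1 is the symbol used for the Pdx1 family, which in vertebrates directs the pancreas and the anterior gut. The study asked whether the sinuses on the opposite sides of the tunicate heart are alike, and it named hox3 and ipf1 (as pdx1) as sinus genes on these same libraries. Their values here are therefore not independent evidence of that pattern.

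Levels are given as FPKM, reads per unit of gene length and of library size. In this table library size refers to the listed genes only. The 5 genes together held 0.431% and 0.418% of the adjusted reads of the PS libraries and 0.368% and 0.340% of those of the SS libraries, against 0.138% in both libraries of C. Library totals over the listed genes ran between 1412759 and 1950483 adjusted reads, and each library had between 782 and 787 genes above 0. A factor of unwanted variation had been taken out before deposit. Its direction was close to the difference between replicates 1 and 2 in all parts (cosine 0.997), so the spread between replicates given below is what was left after that step. With 2 libraries against 2, an exact permutation test of a single gene cannot go below a two-sided p of 0.333. Tests were therefore made with limma, a linear model that shares information on the spread across all 793 genes, and Benjamini-Hochberg adjusted p-values over all of them.

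Hox1, the most anterior of the Hox genes and a target of retinoic acid in Ciona embryos, was barely detected. It had 0.426 and 0.855 FPKM in the PS and 2.04 and 0 FPKM in the SS, against 1.29 and 4.48 FPKM in C. These levels rest on 1 and 2 adjusted reads in the PS, 5 and 0 in the SS, and 3 and 11 in C. The values of the SS libraries spanned those of the PS and overlapped those of C. At this depth no difference in hox1 was detectable, and its differences are not read further.

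Hox3, an anterior Hox gene, was abundant in every part and higher in both sinuses. It had 1048 and 874 FPKM in the PS and 879 and 831 FPKM in the SS, against 233 and 280 FPKM in C. All 4 sinus libraries lay far above both cardiac tube libraries, and the ranges of the PS and SS overlapped. Among all listed genes hox3 stood at percentiles 90.0 and 88.4 in the PS and 88.9 and 87.9 in the SS, against 72.0 and 75.4 in C. Its level in C was thus not low, and was above the median of all listed genes (77.2 and 78.5 FPKM in C) in both libraries.

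Hox4, a Hox gene of the next more posterior group, followed a graded order. It had 673 and 749 FPKM in the PS and 438 and 569 FPKM in the SS, against 414 and 298 FPKM in C. No PS library overlapped with another part, and the lowest SS library was close to the highest library of C. The means were 711 ± 54.0 FPKM in the PS and 504 ± 92.8 FPKM in the SS, against 356 ± 82.2 FPKM in C (SD, n = 2 each).

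Hox5, a central Hox gene, had the flattest profile of the well detected members. It had 411 and 483 FPKM in the PS and 333 and 268 FPKM in the SS, against 457 and 475 FPKM in C. The PS and C overlapped, and both SS libraries were below the other 4. The means were 447 ± 51.1 FPKM in the PS and 301 ± 45.6 FPKM in the SS, against 466 ± 12.6 FPKM in C (SD, n = 2 each).

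Ipf1 was near 0 in the cardiac tube and present in both sinuses. Among all listed genes it stood at percentiles 60.2 and 26.5 in the PS and 48.0 and 35.2 in the SS, against 0.757 and 4.79 in C. It had 123 and 28.5 FPKM in the PS and 78.5 and 50.7 FPKM in the SS, against 0 and 1.51 FPKM in C. The cardiac values come from 0 and 4 adjusted reads, against 311 and 72 in the PS and 208 and 128 in the SS. All sinus libraries were above both cardiac libraries, but the PS replicates were far apart and held both the highest and the lowest sinus value. The endostyle marker endostyle-specific ran the other way between the PS libraries (128 and 1010 FPKM), being low where ipf1 was high. Among the other genes listed for the pharynx and endostyle, pax3/7-like ran the same way as ipf1 (66.3 and 40.4 FPKM). Tgfbeta2 (129 and 125 FPKM), sfrp3/4-b (374 and 356 FPKM) and foxE differed little between the PS libraries. A link of these genes to the spread of ipf1 was not tested. In bulk tissue, fewer cells with a transcript and less of that transcript per cell cannot be told apart.

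**Figure D1:**
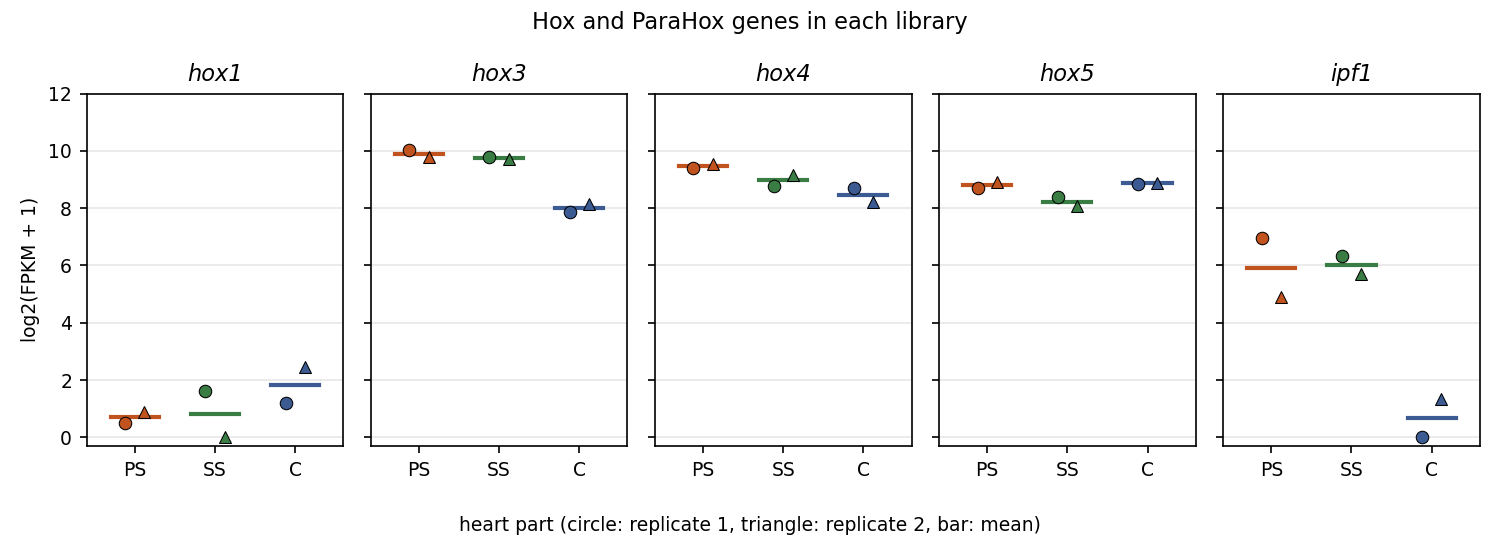
Levels of the Hox and ParaHox genes as log2(FPKM + 1) on the vertical axis, by heart part on the horizontal axis, with 1 panel per gene. Circles are replicate 1, triangles replicate 2 and bars the mean of the 2 libraries. Hox3 and ipf1 sit higher in both sinuses than in the cardiac tube, hox4 is graded, hox5 is lowest in the SS and hox1 is near 0 throughout.

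The order of the members also differed between the parts. By mean FPKM the order was hox3, hox4, hox5, ipf1 and hox1 in the PS, and the same in the SS. In the cardiac tube it was hox5, hox4, hox3, hox1 and ipf1. In both sinuses no pair of neighbours in the order overlapped between libraries. In C hox5 (lowest library 457 FPKM) did not overlap with hox4 (highest 414), nor hox4 (lowest 298) with hox3 (highest 280), whereas hox1 and ipf1 overlapped. Thus the most abundant member by FPKM was hox3 in each of the 4 sinus libraries and hox5 in each of the 2 cardiac libraries. This order depends on the gene lengths behind FPKM (2568 bases for hox3, 1214 for hox4 and 1121 for hox5). In adjusted reads of C, hox3 (936 and 1193) was above hox5 (802 and 882), and hox4 (788 and 600) was below it. Of the summed FPKM of the 5 genes, hox3 made up 46.5% and 40.9% in the PS and 50.8% and 48.3% in the SS, against 21.1% and 26.5% in C. For hox5 the shares were 18.2% and 22.6% in the PS and 19.2% and 15.6% in the SS, against 41.3% and 44.8% in C.

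Ratios between members within a library do not depend on how libraries were scaled to each other. Whether a ratio lies above or below 1 does depend on the gene lengths, whereas its change between parts does not. The ratio of hox3 to hox5 was 2.55 and 1.81 in the PS and 2.64 and 3.10 in the SS, against 0.509 and 0.590 in C. The ratio of hox4 to hox5 was 1.64 and 1.55 in the PS and 1.32 and 2.12 in the SS, against 0.907 and 0.628 in C. Both ratios were above 1 in every sinus library and below 1 in both cardiac libraries. The ratio of hox3 to hox4 behaved alike, at 1.56 and 1.17 in the PS and 2.01 and 1.46 in the SS, against 0.562 and 0.940 in C.

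**Figure D2:**
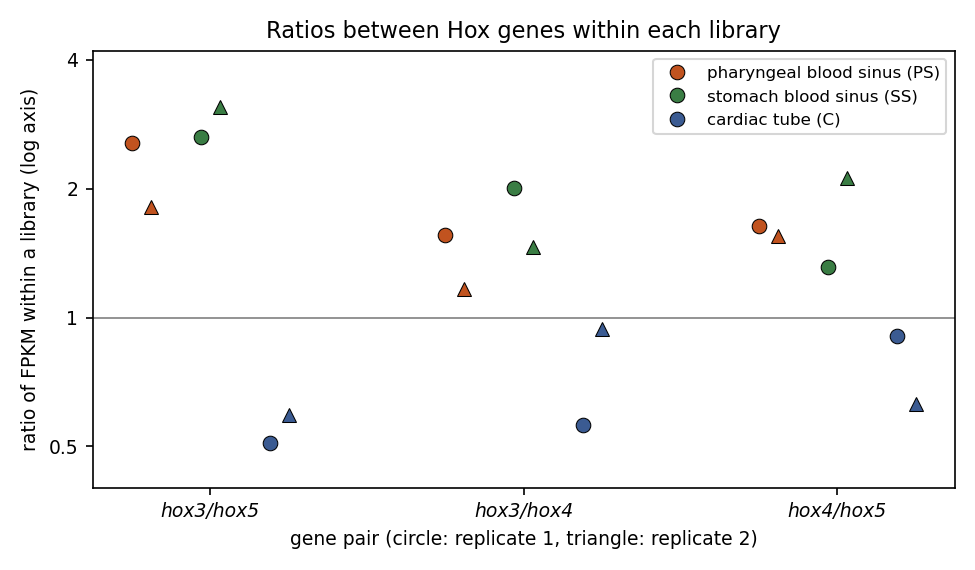
Ratios of FPKM between pairs of Hox genes within each library (vertical axis, log scale) for 3 gene pairs (horizontal axis). Circles are replicate 1 and triangles replicate 2, with the PS, the SS and C from left to right for each pair. All sinus libraries lie above 1 and both cardiac tube libraries below 1, with hox3/hox5 between 1.81 and 3.10 in the sinuses and at 0.509 and 0.590 in C.

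The vessel on the pharyngeal side, the PS, was set against C. By itself this comparison cannot tell a gene of the PS from one shared by both sinuses. Hox3, hox4 and ipf1 rose, while hox5 and hox1 did not pass. Hence 3 of 5 members were higher and none lower, where 7.44% of all 793 genes were called, 5.04% higher (40) and 2.40% lower (19). The difference on the log2(FPKM + 1) scale was 1.90 ± 0.15 for hox3 (SE, limma adjusted p = 0.00545), with a 95% interval of 1.54 to 2.27. For hox4 it was 1.01 ± 0.21 (adjusted p = 0.0419, interval 0.51 to 1.52), and for ipf1 5.26 ± 0.77 (adjusted p = 0.0216, interval 3.38 to 7.13). Hox5 differed by -0.06 ± 0.15 (adjusted p = 0.884), with an interval of -0.44 to 0.31. The median difference over the 5 members was 1.01, and over all genes it was below 0.01 in size.

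The call for hox4 was the least stable of these. With both libraries of every fitted part kept, hox4 passed in 8 of 11 alternative settings (adjusted p 0.0039 to 0.143). Its difference was then 0.99 to 1.35. Hox3 passed in 10 of 11 (adjusted p 0.00025 to 0.0696) and ipf1 in 9 of 11 (0.00219 to 0.0696). With 1 library left out, only differences are read, because 1 part then has no spread of its own. They were 0.78 to 1.25 for hox4, 1.77 to 2.04 for hox3 and 4.22 to 6.29 for ipf1. Hox3, hox4 and ipf1 all missed the threshold without either cardiac tube library when the term for the removed factor was kept. The size of the ipf1 difference followed the pseudocount, at 7.21 with 0.1 and 2.74 with 10, because cardiac values were near 0.

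For the vessel on the other side, the SS was set against C. Hox3 and ipf1 rose and the other 3 members did not pass, so that 2 of 5 were higher where 1.64% of all genes were called, 1.26% higher (10) and 0.378% lower (3). Both genes had been named by the study on these same libraries, so this count is no independent evidence either. Hox3 differed by 1.74 ± 0.15 (SE, limma adjusted p = 0.0183, interval 1.38 to 2.10) and ipf1 by 5.34 ± 0.77 (adjusted p = 0.0438, interval 3.47 to 7.21). Hox4 differed by 0.51 ± 0.21 and did not pass (adjusted p = 0.217). Hox5 differed by -0.64 ± 0.15, with an interval of -1.01 to -0.26 that left out 0 before adjustment (unadjusted p = 0.00600), and did not pass over all genes (adjusted p = 0.0991). The median difference was 0.51 over the 5 members and 0.02 over all genes.

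Hox3 passed in 16 of 23 alternative settings (adjusted p 2.53e-21 to 0.156) and ipf1 in 13 of 23 (1.05e-25 to 0.226), and neither passed without a single cardiac tube or stomach sinus library when the factor term was kept. With both libraries of every fitted part kept, hox4 passed in 1 of 11 (adjusted p 0.0357 to 0.351). Hox5 also passed in 1 of 11 (0.0372 to 0.309). With 1 library left out, the differences were 0.27 to 0.74 for hox4 and -0.79 to -0.48 for hox5. Fits with 1 library left out are not read as calls, since the number called depended on which library was missing. With the factor term kept, the number of all genes called was 90 and 92 without a PS library and 0 without a cardiac or SS library. With no such term it was 44 and 42 without a PS library, 46 and 24 without an SS library, and 0 and 1 without a cardiac library. The comparisons of the PS and of the SS with the cardiac tube share the 2 cardiac libraries, and their values are set side by side only.

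The sinuses were compared directly, since the study asked whether they are equivalent. By limma none of the 5 members passed, where 1.26% of all genes did, 0.757% higher and 0.504% lower in the PS. At an unadjusted p under 0.05 there were 2 of the 5, hox5 and hox4, where 14.9% of all genes were. Hox3 was the member with the narrowest interval around 0, with a PS minus SS difference of 0.16 ± 0.15 (SE, adjusted p = 0.756, 95% interval -0.20 to 0.53). Hox4 was 0.51 ± 0.21 higher on the pharyngeal side (adjusted p = 0.334, interval 0.00119 to 1.01). For hox5 the difference was 0.57 ± 0.15 (adjusted p = 0.182, interval 0.20 to 0.95). It passed in 0 of 11 alternatives that kept both libraries of every fitted part (adjusted p up to 0.457). With 1 library left out the hox5 difference ran between 0.42 and 0.73. It crossed the threshold in 2 of these 12 fits, which are not read as calls. Ipf1 differed by -0.08 ± 0.77, and with an interval of -1.95 to 1.79 neither equal levels nor a difference was shown. Without PS replicate 2 the ipf1 difference was 0.95, and without PS replicate 1 it was -1.12.

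**Figure D3:**
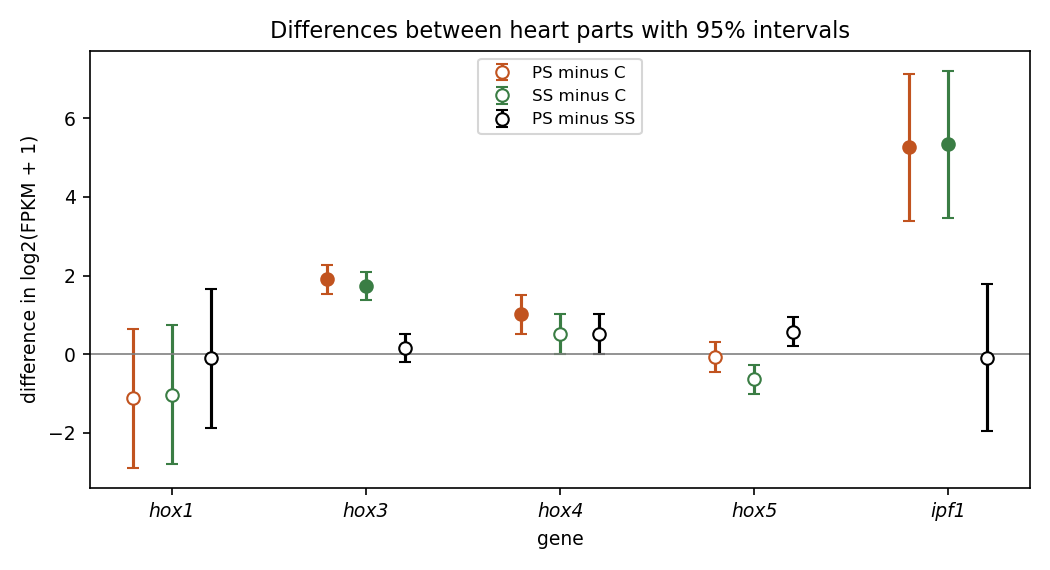
Differences between heart parts in log2(FPKM + 1) (vertical axis) for each gene (horizontal axis), with 95% intervals from limma as bars. Filled points passed an adjusted p of 0.05 and open points did not. Hox3 and ipf1 were higher in both sinuses and hox4 in the PS, and no member passed between the sinuses.

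Differences against the cardiac tube also depended on the scaling of libraries. When libraries were scaled by their own totals, an alternative chosen after seeing the data, the median of all genes moved to 0.33 for the PS and 0.36 for the SS. The intermediate filament gene if-a took 8.41% and 7.99% of all adjusted reads in the PS and 11.3% and 11.0% in the SS, against 16.9% and 18.1% in C. With if-a left out of the totals the median was still 0.18 for the PS and 0.26 for the SS. Under full totals hox4 also passed in the SS (0.86, limma adjusted p = 0.0357). Taking the shift off returns nearly the main differences by construction, since the main FPKM already rest on size factors. Such values are given for size only and are no separate support. Relative to the shift under full totals, hox3 differed by 1.91 in the PS and 1.73 in the SS, hox4 by 1.02 and 0.50, ipf1 by 5.10 and 5.16, and hox5 by -0.05 and -0.65, in that order of parts. The sign of the hox5 difference in the PS turned without this correction (0.27, and 0.12 with if-a left out). Under full totals the calls over all genes split into 95 higher and 12 lower in the PS and 76 higher and 3 lower in the SS.

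Hox proteins bind DNA together with cofactors of the TALE homeobox class, and 3 such genes were listed. Pbx had 519 and 555 FPKM in the PS and 486 and 402 FPKM in the SS, against 464 and 512 FPKM in C. Meis had 632 and 722 FPKM in the PS and 720 and 684 FPKM in the SS, against 855 and 789 FPKM in C. Prep, which pairs with Pbx proteins, had 104 and 102 FPKM in the PS and 123 and 121 FPKM in the SS, against 117 and 118 FPKM in C. None of the 3 passed by limma in any comparison. The largest difference was that of meis between the PS and C (-0.28 ± 0.12, adjusted p = 0.237), and the cofactors were thus present in all parts at levels that varied far less than hox3.

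Retinoic acid acts through paired receptors, of which rar and rxr were listed. Rar had 211 and 219 FPKM in the PS and 188 and 179 FPKM in the SS, against 212 and 211 FPKM in C. Rxr had 333 and 363 FPKM in the PS and 299 and 333 FPKM in the SS, against 429 and 360 FPKM in C. Neither passed, with SS minus C differences of -0.21 ± 0.12 for rar (limma adjusted p = 0.367) and -0.32 ± 0.14 for rxr (adjusted p = 0.256). The other symbols searched for retinoic acid signalling (raldh, raldh2, aldh1a, cyp26, crabp, rdh and stra6) and for the remaining Hox and ParaHox genes (hox2, hox10, hox12, hox13, cdx and gsx) had no match, and these genes were not analysed here.

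Of 21 other homeobox genes, 4 were higher and 2 lower in the PS than in C, and 15 did not pass, where 5.04% of all genes were higher and 2.40% lower. Higher were pax3/7-like (4.34 ± 0.42), six12 (3.51 ± 0.46), hex and hnf6, which had 15.2 and 13.7 FPKM in the PS and was listed at 0 in both libraries of C. Hex, known in vertebrates from endothelial and endodermal precursors, had 208 and 188 FPKM in the PS and 166 and 185 FPKM in the SS, against 99.4 and 96.7 FPKM in C. It passed in the PS (limma adjusted p = 0.0216) and not in the SS (0.0581). Lower were the cardiac gene nk4 (-0.83 ± 0.13) and the Iroquois gene irx-b (-0.67 ± 0.12). In the SS six12 was higher and irx-b lower, and 19 did not pass, where 1.26% of all genes were higher and 0.378% lower. The median difference of the 21 genes was 0.45 in the PS and 0.42 in the SS, beside medians over all genes of less than 0.01 in size and of 0.02. Evx-a and mox belong to families that lie next to Hox clusters in many animals. Evx-a had 11.2 and 12.9 FPKM in the PS and 18.0 and 38.2 FPKM in the SS, against 7.30 and 3.07 FPKM in C, and its SS minus C difference was 2.23 ± 0.53 (adjusted p = 0.0962). Mox had 37.8 and 30.0 FPKM in the PS and 30.1 and 44.2 FPKM in the SS, against 18.3 and 15.8 FPKM in C. Its differences were 0.95 ± 0.31 for the PS (adjusted p = 0.134) and 1.06 ± 0.31 for the SS (0.126). Both genes were above their cardiac values in all 4 sinus libraries, though neither passed.

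**Figure D4:**
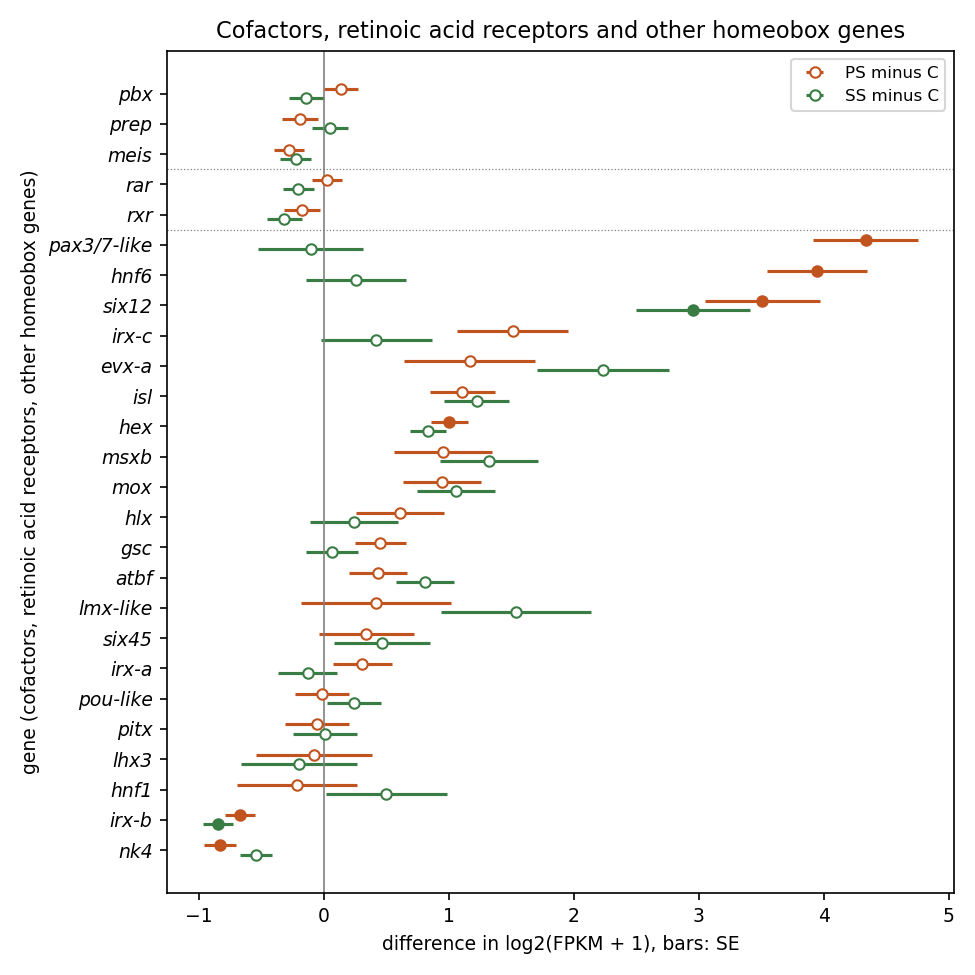
Differences of each sinus from the cardiac tube in log2(FPKM + 1) (horizontal axis, bars are SE) for the TALE cofactors, the retinoic acid receptors and 21 other homeobox genes (vertical axis, groups parted by dotted lines). Filled points passed an adjusted p of 0.05 and open points did not. No cofactor or receptor passed, and six12 was higher and irx-b lower in both sinuses.

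The genes whose profile was most like that of each member were sought by Pearson's r of log2(FPKM + 1) over the 6 libraries among 775 genes, as a description only. Libraries of 1 part and the removal of a shared factor tie these values together. For hox3 they were fli/erg1, an ETS factor (r = 0.996), six12 (0.994) and LOC494380 (0.988). For ipf1 they were six12 (0.984), ciha9d22 (0.979) and the receptor gene egfr1 (0.979). Egfr1 had 200 and 198 FPKM in the PS and 205 and 198 FPKM in the SS, against 176 and 181 FPKM in C. Its change was far smaller than that of ipf1, which r does not take into account. Six12, a homeobox gene, had 22.6 and 11.4 FPKM in the PS and 11.9 and 9.53 FPKM in the SS, against 0.275 and 0.779 FPKM in C. It was thus low in C like ipf1, and like ipf1 it was higher in PS replicate 1 than in replicate 2. Hox3 and ipf1 had an r of 0.983 with each other.

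Hox4 was most like erd2 (0.981), the nuclear receptor gene gcnf (0.980) and LOC494375 (0.974). Gcnf had 99.0 and 100.4 FPKM in the PS and 82.8 and 94.4 FPKM in the SS, against 74.5 and 64.8 FPKM in C, a graded order of smaller size. Hox5 was most like ephrina-b (0.989), rar (0.972) and jun (0.962). Ephrina-b had 352 and 408 FPKM in the PS and 328 and 281 FPKM in the SS, against 390 and 389 FPKM in C. Like hox5 it was thus lowest in the SS. Hox1 was most like erm/er81 (0.987), fut13 (0.973) and LOC100182203 (0.958), which rests on very few reads of hox1 and is no finding. Among the members, hox5 had an r of -0.48 with hox3 and -0.14 with hox4, whereas hox3 and hox4 had 0.78.

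Lists of genes for the heart chamber and for neighbouring tissues differed in how far they followed the parts, and their share in the values above was not tested. The counts below stand beside 7.44% of all 793 genes called in the PS and 1.64% in the SS. The cardiac list held 9 genes, of which tropm1 and smyd1 are muscle genes, nk4, hand, irx-b and coup encode transcription factors, and ephrinb, fgf9/16/20 and sfrp1/5 encode signalling proteins. The study named some of them as chamber genes on these libraries, so their direction is not independent evidence. All 9 differences were negative in both sinuses, and nk4, irx-b, smyd1 and sfrp1/5 passed in the PS and irx-b in the SS. Of the muscle genes, tropm1 differed by -0.41 in the PS (limma adjusted p = 0.148) and -0.26 in the SS (0.322), and smyd1 by -0.71 in the PS (0.0385) and -0.37 in the SS (0.182). The summed level of the list was 8960 to 9410 FPKM in the PS and 9877 to 10139 FPKM in the SS, against 12132 to 13048 FPKM in C, and none of the 9 was listed at 0 in both libraries of a part. The 5 genes listed for the pharynx and endostyle summed to 705 to 1539 FPKM in the PS and 410 to 429 FPKM in the SS, against 283 to 310 FPKM in C. Of these tgfbeta2, sfrp3/4-b and pax3/7-like, which are signalling and transcription factor genes, were higher in the PS. The marker endostyle-specific (4.40, limma adjusted p = 0.0583) and foxE (0.33, 0.727) did not pass. On these same libraries the study named endostyle genes and tgfbeta2 for the PS, and ciap and gh18 of the next list for the SS. Their direction is not independent evidence either. The 5 stomach and gut markers summed to 129 to 148 FPKM in the PS and 157 to 202 FPKM in the SS, against 102 to 131 FPKM in C. Of these hnf6 was higher and foxa-a lower in the PS, and hnf1 was listed at 0 in both PS libraries. None of these markers passed in the SS, where hnf6 had 0.188 and 0.198 FPKM. The 4 neural markers summed to 965 to 1078 FPKM in the PS and 1156 to 1317 FPKM in the SS, against 1823 to 2044 FPKM in C, most of it from ache. Of these th, gnrh1 and opsin3 were higher and ache lower in the PS. The 3 vanabins, metal-binding proteins of ascidian blood cells, summed to 11139 to 13688 FPKM in the PS and 6803 to 8730 FPKM in the SS, against 9549 to 10270 FPKM in C, and none passed. The 4 sinus genes that the study named on these samples (isl, six12, fli/erg1 and ets/pointed1) summed to 240 to 262 FPKM in the PS and 220 to 268 FPKM in the SS, against 102 to 117 FPKM in C. All 4 differences were positive in both sinuses, and 2 genes passed in the PS and 1 in the SS. For its clustering of these libraries the study took genes at an unadjusted p under 0.05, a looser threshold than the adjusted p used here.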

How the data were processed

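Per the paper's methods and the labels, the authors used cutadapt for adapter removal and STAR for alignment to the UCSC Ciona genome ci3, and obtained gene values from reads with a unique alignment through featureCounts (Subread). The authors then removed 1 factor of unwanted variation (RUVs) within DESeq2. The deposited columns headed raw were treated as a score (adjusted reads), not counts. Over the 179 genes with a mean above 1000, a single weighted sum of the 3 replicate differences of natural log values was at most 0.000695 in size, where the median difference was 0.0835. The weights were 0.531 (PS), 0.554 (SS) and 0.641 (C). The authors derived FPKM from the adjusted reads with DESeq2 size factors (0.975 to 1.03) and the geometric mean of the library totals over the 793 genes. This scaling gave a whole gene length, within 0.01, for 100% of the genes. Because the depth is unknown, counting intervals were left out. Columns with the authors' own comparisons (log2 fold change, p-value, adjusted p-value) and group means were not used.

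Values were log2(FPKM + 1), fitted with limma 3.58.1 in R 4.3.3 over all 6 libraries and 3 groups. A term for the removed factor left 2 residual degrees of freedom, and variances were moderated with a trend on the level. The threshold for a call was an adjusted p (Benjamini-Hochberg, all 793 genes, no filter) under 0.05. Alternatives were other pseudocounts (0.1 and 10), leaving out genes under a mean of 5 FPKM, no factor term, no trend, a replicate block, adjusted reads in place of FPKM, only the groups compared, each library left out in turn, and scaling by totals (added after seeing the data). Named genes were the 5 members, the 3 genes most like each member (mean of at least 1 FPKM), listed cofactors and retinoic acid genes, and called members of the other lists. Members and lists were chosen with earlier results of these data known. Evx-a, mox, gcnf, ephrina-b and egfr1 were given with their levels after their values were seen. The RefSeq gene table used here shared 0 identifiers with the deposited one, and coordinates and sequences are therefore not printed. Reads shared by near-identical copies of a gene were not examined.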

Additional observations from a re-analysis of the deposited data

How the results depend on the processing

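With 2 libraries a part, little spread is left to test against. For the PS against C the number of all genes called was 59, and it was 151 without the factor term, 148 with only the groups compared, 107 with scaling by totals and 13 without the trend. For the SS against C it was 13, and 113 without the factor term, 42 with only the groups compared, 79 with scaling by totals, 47 with totals without if-a, 32 with adjusted reads, 26 with low genes left out, 2 with either other pseudocount (0.1, 10), and 0 with no trend. Between the sinuses it was 10, and 33 without the factor term, 25 and 30 with scaling by totals with and without if-a, 17 with adjusted reads, 3 with low genes left out and 2 with a pseudocount of 0.1. The number of the 5 members called was 3 in the PS, 2 with a pseudocount of 10 and 1 without the trend. In the SS it was 2, and 3 without the factor term or with scaling by totals. It was 1 there with either other pseudocount and 0 with no trend.

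Replicate numbers come from the titles alone, and the correlation of replicate differences between parts was -0.457, -0.460 and -0.535, as the removal of a factor close to that number makes it. The replicate block in place of the factor term gave 61, 13 and 10 genes for the 3 comparisons and 3, 2 and 0 members. The replicate block together with the factor term, which nearly coincide, gave 0 genes and 0 members in each comparison, hox3 having an adjusted p of 0.0696 in the PS and 0.141 in the SS. Leaving out each library in turn gave 0 to 147 genes and 0 to 3 members for the PS, 0 to 92 genes and 0 to 4 members for the SS, and 0 to 58 genes and 0 to 1 members between the sinuses. For the PS the count was 142 without SS replicate 1 and no factor term. For the SS it was 90 without PS replicate 1 with the factor term and 44 with no such term, and with no such term 46 and 24 without SS replicates 1 and 2. Between the sinuses it was 36 without PS replicate 2 with the factor term and 16 with no such term, and with no such term 31 and 16 without SS replicates 1 and 2. In these fits the lone library of a part is assumed to vary like the others. With the factor term they also keep fewer residual degrees of freedom than the main fit. These counts are therefore given as a limit and are not read as results.

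Signs turned for differences that had not passed. Hox5 in the PS was 0.27 with scaling by totals, 0.12 with totals without if-a, and -0.18 to 0.053 when a library was left out (0.053 without PS replicate 1). Between the sinuses hox1 was 0.62 with a pseudocount of 0.1, 0.033 with adjusted reads, and -0.90 to 0.70 when a library was left out (0.0906 without PS replicate 1), and ipf1 was then -1.12 to 0.95 (0.228 without SS replicate 1). No other member changed direction in any comparison. The cause was not tested.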
